A study of Rattus norvegicus with 2 samples.

Results

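The genes of the DNA methylation and demethylation machinery were examined as a set of 10, chosen by name: Dnmt1, Uhrf1, Hells, Dnmt3a, Dnmt3b, Tet1, Tet2, Tet3, Tdg and Mbd2. A gene was represented by the probe sets that carried its symbol alone, and by the one with the highest mean of both arrays where there were several. All 10 of these genes, of 22093 genes on the array, had such a probe set. In 9 of them the signal reached 100 on 1 or both arrays, the limit below which the study discarded signals, and Dnmt3b was below it on both.

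The RNA came from bladders of male rats of the inbred strain F344, aged 114 weeks per the labels. The Control array held pooled RNA of 5 rats that were given drinking water with 0 ppm dimethylarsinic acid (DMA), which the body forms when it methylates arsenic, from 10 weeks of age for 2 years, and its source is labelled as control epithelium. The DMA-tumor array held pooled RNA of 6 bladder tumors from rats given 200 ppm DMA over the same period. The study's methods give a smaller number of tumors, describe the controls as bladder tissue and state that no histology was done. With 1 array of pooled RNA for each group there is no spread between animals, so no difference below carries an error or a p-value, and a difference is given as log2 of the DMA-tumor signal minus log2 of the Control signal. Precision is limited by the number of arrays.

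DNA methylation in mammals is the addition of a methyl group to cytosine, mostly at CpG sites. DNMT1 copies the pattern onto the new strand after replication, guided by UHRF1, which binds hemimethylated CpG, and helped by the chromatin remodeler HELLS, while DNMT3A and DNMT3B set methylation at new sites. The TET enzymes oxidize methylcytosine, the glycosylase TDG removes the more oxidized bases so that repair restores plain cytosine, and MBD2 binds methylated DNA and brings in the NuRD repressor complex. The study asked which genes were silenced together with promoter methylation in these tumors, and the arrays give the transcript levels of the enzymes that write, remove and read that mark.

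Maintenance genes are commonly described as targets of E2F factors, which drive genes of S phase, so the promoters of the maintenance genes are shown together with that of Tet1, the member with the lowest difference. The sequences are those of RefSeq on the GRCr8 build, and 9 of the 10 genes had a window in that table. The E2F consensus was searched in its 4 versions TTTCCCGC, TTTCGCGC, TTTGCCGC and TTTGGCGC, on both strands, in windows from 250 bases before to 50 bases after the start site, with the window richest in CpG taken for genes with several. Capitals mark the matches, none of which overlapped another.
Hells, chr1:246113879-246114128, + strand: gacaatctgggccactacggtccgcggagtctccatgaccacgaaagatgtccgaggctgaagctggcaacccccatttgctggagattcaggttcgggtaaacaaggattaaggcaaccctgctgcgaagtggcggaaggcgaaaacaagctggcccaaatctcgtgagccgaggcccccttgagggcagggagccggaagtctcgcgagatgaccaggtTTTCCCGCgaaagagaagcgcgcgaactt
Uhrf1, chr9:1222936-1223185, + strand: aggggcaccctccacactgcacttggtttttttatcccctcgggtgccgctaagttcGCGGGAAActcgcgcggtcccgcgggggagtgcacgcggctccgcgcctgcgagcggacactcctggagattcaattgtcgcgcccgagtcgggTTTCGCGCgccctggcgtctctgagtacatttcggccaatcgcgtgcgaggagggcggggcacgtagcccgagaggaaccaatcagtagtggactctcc
Dnmt1, chr8:27762798-27762827, - strand, 30 bases around its match: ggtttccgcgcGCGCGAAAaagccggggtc
Tet1, chr20:25781119-25781368, + strand: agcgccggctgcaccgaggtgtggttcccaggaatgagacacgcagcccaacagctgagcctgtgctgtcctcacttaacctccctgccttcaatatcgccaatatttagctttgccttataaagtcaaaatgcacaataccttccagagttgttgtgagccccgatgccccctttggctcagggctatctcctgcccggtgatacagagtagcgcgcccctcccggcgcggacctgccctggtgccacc
Hells held TTTCCCGC at bases -29 to -22 from the start site. Uhrf1 held TTTCCCGC on the opposite strand at -193 to -186 and TTTCGCGC at -99 to -92, and its other 2 windows in the table held none. Dnmt1 held TTTCGCGC on the opposite strand past the start site, at 26 to 33. The windows of the other 6 members, Tet1 included, held none. Over 27457 genes with a window, 2.28% held a match, TTTCCCGC in 1.05% and TTTCGCGC in 0.350%. A match is a run of letters and not a measured binding site. The 9 windows held 16 (Tet1) to 39 (Tet2 and Mbd2) CpG dinucleotides, with 35 in Uhrf1, 23 in Hells and 17 in Dnmt1, against a median of 8 over all genes. The fewest of the 9, 16 CpG, was reached or exceeded by 33.9% of all genes. Each version of the motif contains CG, so the 2.28% is no matched background for windows this rich in CpG, and none was computed.

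Most of the machinery differed by less than 2-fold between the arrays, as did most of all genes. Of the 9 genes measured, 1 (Hells) was at least 2-fold higher in the DMA-tumor array. Another 1 (Tet1) was lower by more than 2-fold on measured signals, although its tumor signal under 100 allows a bound of 1.58-fold only. The other 7 were within 2-fold on measured signals. They include Uhrf1, whose Control signal under 100 allows only a lower bound of 1.09-fold. Each count of 1 is 11.1% of the 9. Over all 12074 genes measured 8.87% were at least 2-fold higher and 10.5% at least 2-fold lower, so the shares of the machinery were near the background. After quantile normalization these background shares were 6.44% and 16.4%. The median difference of the 9 genes was 0.17, against -0.082 over all genes, and the members ranged from -1.22 to 1.61. The criteria in the study's methods add a Z-score of 2 to the 2-fold ratio. With the Z-score taken here over all genes measured, 0 of the 9 genes were called. Of all genes, 2.53% met these criteria as higher and 2.37% as lower. In these data the smallest differences called by both criteria were 1.97 and -2.11. The study's list of hypermethylated and downregulated genes includes folds under 2, so the 0 here does not stand for the study's own calls.

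**Figure D1:**
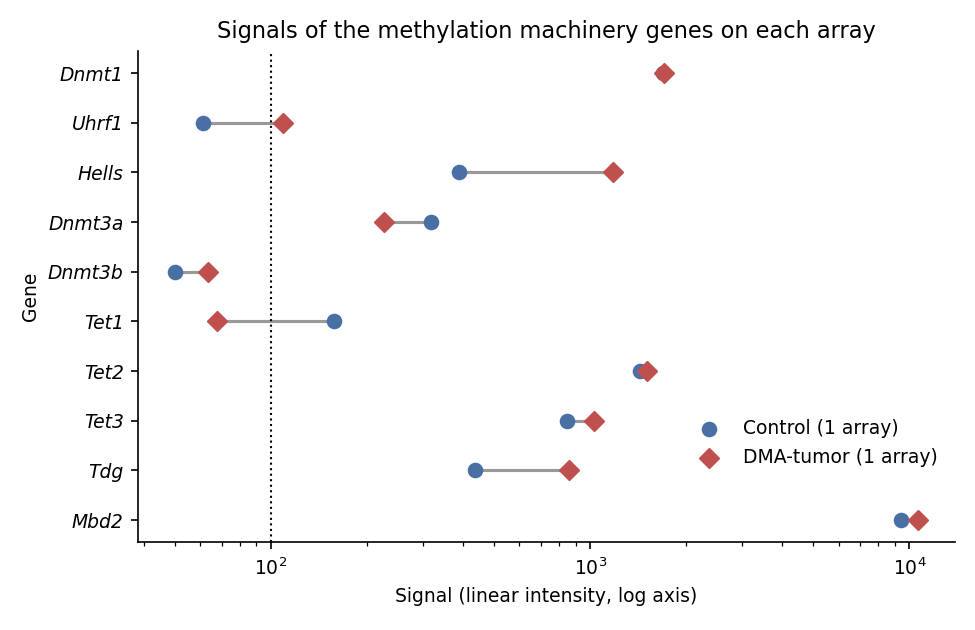
Signals of the 10 machinery genes on a log axis, as linear intensity, with 1 point for each array (circles Control, diamonds DMA-tumor) and a dotted line at a signal of 100. The widest gaps are those of Hells (387 to 1183) and Tet1 (158 to 67.9), while the points of Dnmt1 lie on top of each other.

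The 3 maintenance genes had unequal ratios, with Hells higher in the tumors, Dnmt1 near 0 and Uhrf1 at low signal. Dnmt1, the maintenance methyltransferase, read 1690 on the Control array and 1709 on the DMA-tumor array, the order in which signals are given below. Its difference of 0.016 was the one closest to 0 among the measured members, and it took values from -0.16 to 0.016 over the other ways of processing, so its sign was not settled. Hells had signals of 387 and 1183, a 3.05-fold higher level in the tumors (difference 1.61). A further probe set of Hells gave 376 and 1139 (3.03-fold, difference 1.60), so both probe sets of the gene read almost the same ratio. They were read from the same RNA and are no replicate of the animals. Of all genes measured, 4.02% had a higher difference than Hells. Its difference stayed between 1.42 and 1.61 under the other ways of processing.

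Uhrf1, which recruits DNMT1 to replicated DNA, had signals of 61.3 and 109, and thus crossed the level of 100 only narrowly and only in the tumors. The measured difference was 0.83, but counted from 100 it was at least 1.09-fold higher, a difference of 0.13. Signals this low were noisy: 1278 olfactory and vomeronasal receptor genes, taken as silent in bladder, had differences between -0.81 and 0.52 over their central 95%. The measured difference of Uhrf1 lay above that range. Uhrf1 was kept only through its signal in the tumors, where it was higher, whereas nearly all receptor genes were under 100. Lying outside the range is therefore no support for a difference of Uhrf1. Its difference counted from 100 cannot be set against the range, which comes from signals that were not raised.

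Neither de novo methyltransferase passed 2-fold on measurable signals. Dnmt3a had signals of 318 and 226, a difference of -0.50 (1.41-fold). It took values from -0.79 to -0.50 over the other settings. Of the 1278 silent receptor genes only 6 reached 100, so their range gives no noise level for Dnmt3a. Dnmt3b had signals of 50.2 and 63.3, both under 100, for which no fold is given. Dnmt3l, the catalytically inactive partner of the de novo enzymes in germ cells, was likewise under 100 on both arrays.

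Of the TET genes, which carry out the oxidation step, Tet1 was lower in the tumors and Tet2 and Tet3 were near 0. Tet1 had signals of 158 and 67.9, a difference of -1.22. Since the tumor signal was under 100, Tet1 was at least 1.58-fold lower, and with that signal raised to 100 its difference was -0.66 and no longer reached 2-fold. With all signals under 100 raised in this way, Hells was the 1 member at least 2-fold higher (7.67% of all genes) and 0 members were at least 2-fold lower (9.33% of all genes). The measured difference of Tet1 lay below the central range of the silent receptor genes. This is no support for a lower level, since Tet1 was kept only through its higher Control signal, unlike the receptor genes. The difference of Tet1 counted from 100 cannot be set against that range, which comes from signals that were not raised. Tet2 had signals of 1436 and 1511 (difference 0.074), which lay between -0.073 and 0.074 over the settings. Tet3 had signals of 845 and 1029, a 1.22-fold higher level with a difference of 0.28 that stayed between 0.10 and 0.28. The 1 TET gene past 2-fold was thus the 1 with a signal under 100.

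Tdg, the glycosylase that excises formylcytosine and carboxylcytosine, had signals of 437 and 856. It was 1.96-fold higher in the tumors (difference 0.97), just under 2-fold, and 9.24% of all genes had a higher difference. Under the other settings its difference lay between 0.78 and 0.97. Mbd2, the methyl-CpG reader, had signals of 9440 and 10614. Its difference of 0.17 took the opposite sign after removal of the loess trend (-0.22) and after quantile normalization (-0.092).

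**Figure D2:**
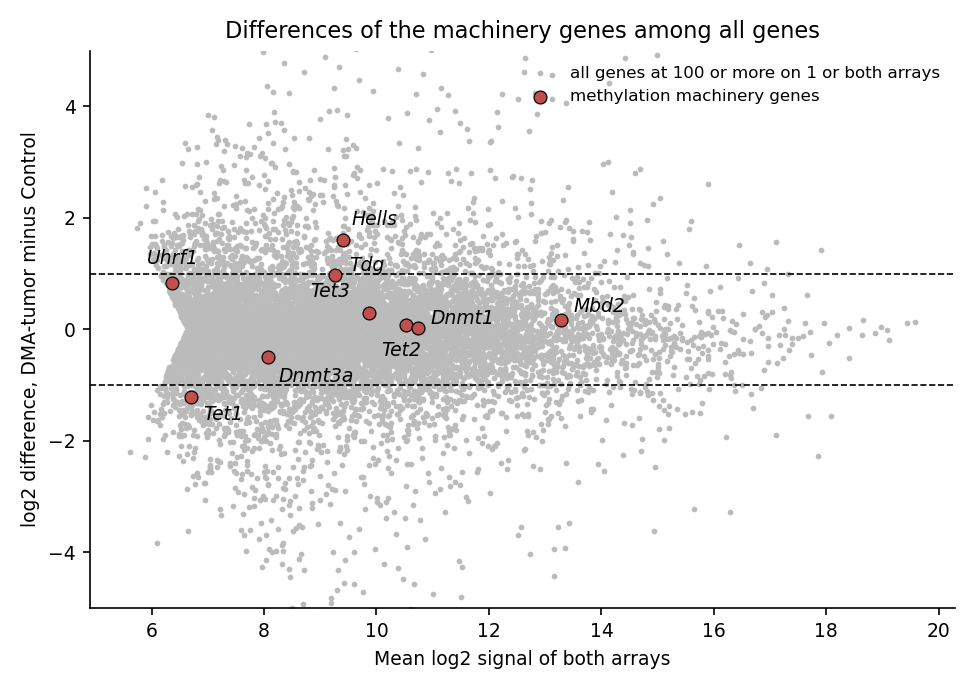
log2 difference (DMA-tumor minus Control) against the mean log2 signal of both arrays for the 12074 genes measured (grey) and the 9 measured machinery genes (red), with dashed lines at 2-fold and 55 genes beyond the drawn range of 5. Hells lies above the upper line at 1.61, Tdg just below it at 0.97, and Tet1 below the lower line at -1.22 at low signal.

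In the order of differences Hells was followed by Tdg, Uhrf1, Tet3, Mbd2, Tet2, Dnmt1, Dnmt3a and Tet1. The places of Uhrf1 and Tet1 rest on a signal under 100, and counted from 100 Uhrf1 (0.13) lay below Tet3 and Mbd2 while Tet1 (-0.66) was still the lowest. Among the members measured on both sides, Hells stood 0.64 above Tdg, and Dnmt3a stood 0.51 below Dnmt1. The standard deviation of the differences of the silent receptor genes was 0.34, but nearly all of these genes were under 100. No spread between arrays is known. The order of Tet3, Mbd2, Tet2 and Dnmt1, which lay between 0.016 and 0.28, thus cannot be read beyond these arrays.

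Genes that work with the machinery were examined in 7 lists of 71 genes in all, Mbd4 being in both the reader and the repair list, of which 56 were measured at 100 or more. Of these 56, 2 (3.57%) were at least 2-fold higher and 0 were at least 2-fold lower, against 8.87% and 10.5% of all genes, and their median difference was -0.050. Of the 56, 41 (73.2%) differed by less than 0.5, as did 55.8% of all genes and 5 of the 9 machinery genes. After quantile normalization 1 was higher (Xrcc1) and 4 were lower (Zbtb4, Hdac1, Cxxc5 and Smug1), against 6.44% and 16.4% of all genes. With the loess trend removed 1 was higher (Xrcc1) and 2 were lower (Zbtb4 and Hdac1), against 7.70% and 13.5%. With the array medians aligned 2 were higher (Xrcc1 and Mat2a) and 1 was lower (Zbtb4), against 8.29% and 11.3%.

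Among the partners of maintenance methylation, 0 of 9 measured genes passed 2-fold in either direction, with a median of 0.14. The largest differences were those of Uhrf2, a relative of Uhrf1, at 1231 and 1967 (0.68), and of Ehmt2, a histone H3 lysine 9 methyltransferase, at 467 and 318 (-0.55). Cdca7, which recruits HELLS to chromatin, was under 100 on both arrays at 74.4 and 85.8, so no level of that partner was measured beside the higher Hells. Usp7, the deubiquitinase that stabilizes DNMT1 and UHRF1, had signals of 4105 and 5137 (0.32). Cdca7 and Usp7 were named after their values had been seen. The 3 measured partners of de novo methylation lay between -0.088 and 0.35, with Nsd1 at 2696 and 3442 (0.35) and Setd2 at 1808 and 2034 (0.17), the methyltransferases of histone H3 lysine 36 whose marks DNMT3 enzymes bind.

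Readers of methylated DNA other than Mbd2 lay on either side of 0, with 3 positive and 4 negative differences among 7 measured genes and a median of -0.18. The zinc finger reader Zbtb4 had signals of 2076 and 1058 (-0.97), just inside 2-fold, and passed it when the arrays were centred on their medians. Zbtb33 (Kaiso) had signals of 897 and 654 (-0.46). The 11 subunits of NuRD, the complex that MBD2 brings to methylated promoters, lay between -0.77 and 0.12 (median -0.058). The histone deacetylase Hdac1 was 1.70-fold lower, at 9819 and 5766, and Mta2 was 1.66-fold lower, at 7665 and 4604.

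On the demethylation side, the 4 measured genes of TET partners and cofactor supply had a median of 0.51. Ogt, the glycosyltransferase that binds TET proteins, was 1.88-fold higher, at 8346 and 15705 (0.91), and the CXXC zinc finger gene Cxxc5 was 1.89-fold lower, at 669 and 354 (-0.92). Cxxc4 was under 100 on both arrays. Among 12 measured genes of base excision and deamination (median -0.18), 1 was past 2-fold, the repair scaffold Xrcc1. Its signals were 146 and 464, a 3.18-fold higher level (difference 1.67). It remained past 2-fold under each of the 8 other settings, although filters and the raising of signals to 100 could not change its value. The other 11 genes were within 2-fold, and 4 listed genes (Neil2, Neil3, Apobec1 and Gadd45g) were under 100 on both arrays.

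In the methyl donor cycle, which makes and recycles S-adenosylmethionine, 1 of 11 measured genes was past 2-fold (median 0.023). This was Mat2a, the S-adenosylmethionine synthetase of most tissues outside liver, at 10979 and 25789 (2.35-fold higher, difference 1.23), which was within 2-fold after loess or quantile normalization. The liver genes Mat1a, Bhmt and Gnmt were under 100 on both arrays, as was Mthfd2.

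**Figure D3:**
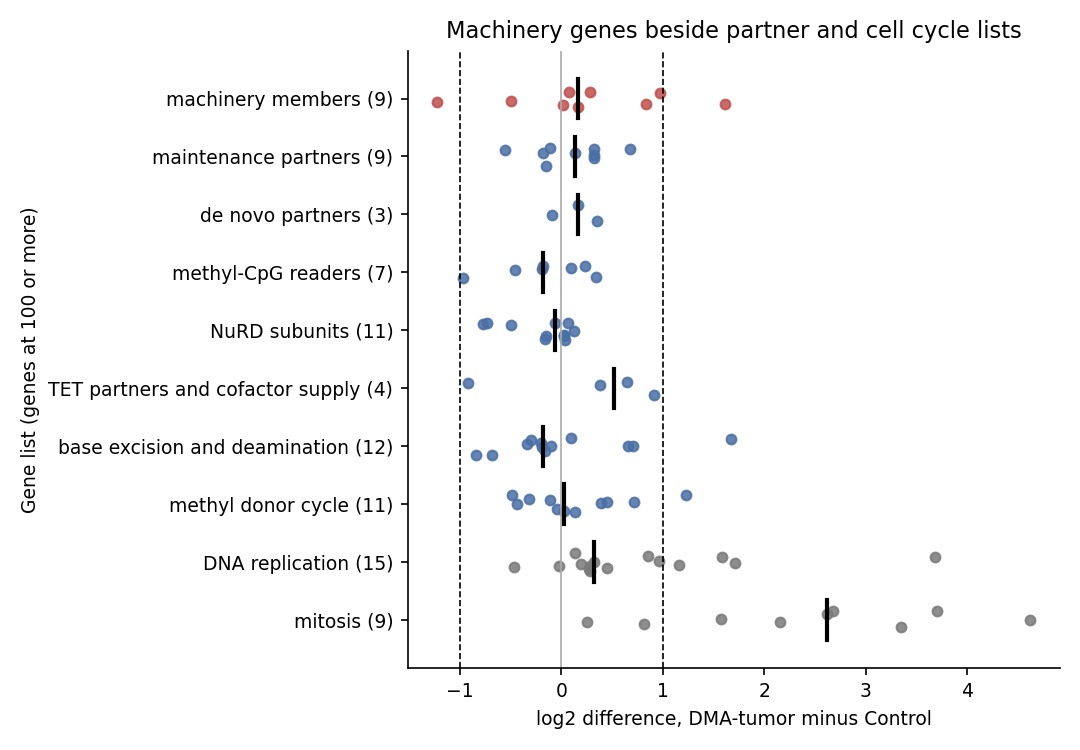
log2 differences (DMA-tumor minus Control) of the measured genes of each list, 1 point for each gene with the number of genes in brackets, a black bar at the median and dashed lines at 2-fold. The 9 machinery genes and the 7 partner lists centre near 0, with the highest partner median at 0.51, while the 9 mitosis genes have a median of 2.62.

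Mitosis genes had the highest ratios of the lists examined. Of 9 measured mitosis genes, 7 were at least 2-fold higher and 0 lower on measured signals (median 2.62), against 8.87% and 10.5% of all genes. Of the 9, 8 had a Control signal under 100 and so counted as measured only through the DMA-tumor array, where they were higher. The count of this list is therefore no independent support for a higher level. Counted from 100, 6 were at least 2-fold higher (7.67% of all genes) with a median of 1.91. Over the list the signals summed to 697 on the Control array and 5657 on the DMA-tumor array. Examples were the proliferation marker Mki67 at 84.6 and 2076 (at least 20.8-fold higher) and the topoisomerase Top2a at 87.2 and 1133 (at least 11.3-fold). Over all 17 listed DNA replication genes the signals summed to 13160 and 15330. Of the 15 measured, 4 were at least 2-fold higher and 0 lower (median 0.32), against the same 8.87% and 10.5% of all genes. These 4 were Rrm2, a subunit of ribonucleotide reductase, at 59.8 and 766 (at least 7.66-fold), the origin licensing factor Cdc6 at 186 and 609 (3.28-fold), and the helicase subunits Mcm3 at 219 and 657 (2.99-fold) and Mcm5 at 112 and 252 (2.24-fold). Hells was at 3.05-fold. Cdc6, Mcm3 and Mcm5 were named because they passed 2-fold, so the likeness of their folds to that of Hells follows from that choice. The other 11 measured replication genes were within 2-fold. Dnmt1 (1.01-fold) lay near the replication clamp Pcna (1.25-fold) and the ligase Lig1 (1.10-fold), which DNMT1 and UHRF1 meet at the replication fork. Pcna and Lig1 were chosen after their values had been seen. The part of cell cycle activity in the levels of Hells, Uhrf1 and Tdg was not tested.

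Marker genes listed for cell types of the bladder wall also differed in signal between the arrays. Of 11 listed urothelial genes, the keratin Krt5 had no probe set with its symbol alone and was not measured. The other 10 all had lower signals in the tumors (8 of them by at least 2-fold, summed signals 2099830 and 660284). Over all genes measured, 10.5% were at least 2-fold lower, the share to set beside each count of markers here. The study takes the tumors to be urothelial carcinomas, and how much urothelium either array held was not measured. The uroplakins Upk1a, Upk1b, Upk2 and Upk3a were far above 100 on both arrays. The keratin Krt20 had signals of 5761 and 77.9 (at least 57.6-fold lower) and Krt18 signals of 109504 and 8919 (12.3-fold lower). Of 8 fibroblast and matrix genes, 7 were at least 2-fold lower (summed signals 148230 and 1787), and so were 7 of 7 measured smooth muscle genes (summed signals over all 8 of 56597 and 4363). Of 6 measured leukocyte genes, 4 were at least 2-fold lower (summed signals over 11 genes with a probe set 6709 and 1789), while Cd3d, Cd3e, Cd8a, Ms4a1 and Itgam were under 100 on both arrays. No marker was at 0 on either array, but markers under 100 also read above 0, such as Ms4a1 at 22.3 and 23.2. This therefore does not show that a cell type was present. The part of these cell types in the levels of Tet1, Dnmt3a and the other members was not tested, and in pooled tissue RNA fewer cells of a type and less RNA in each cell cannot be told apart.

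**Figure D4:**
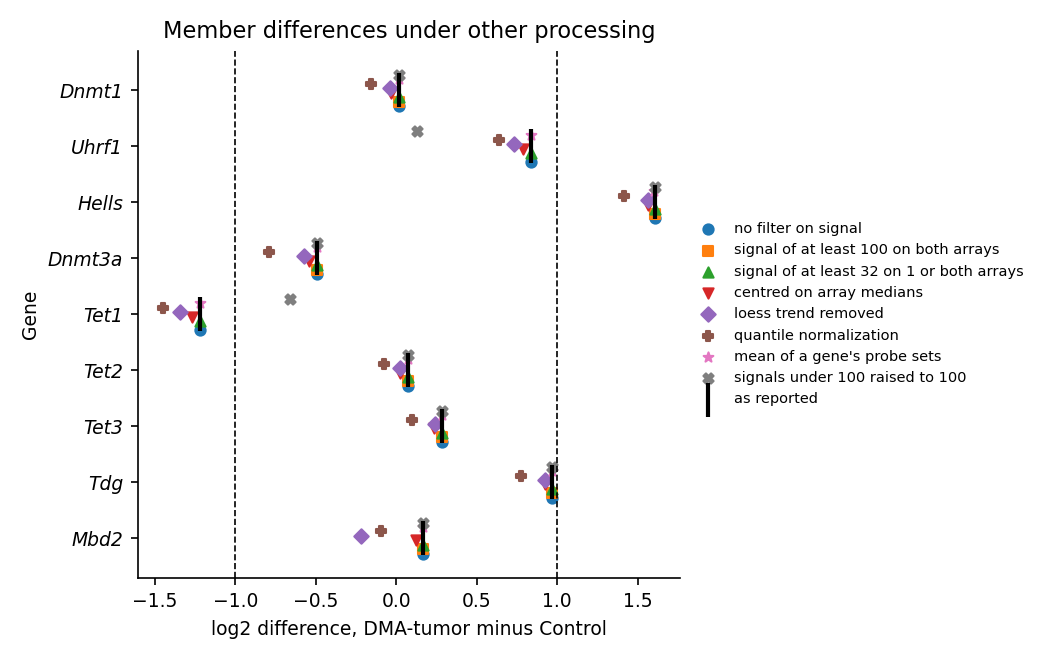
log2 differences (DMA-tumor minus Control) of the 9 measured machinery genes as reported (black bars) and under 8 other ways of filtering and normalization (coloured symbols), with dashed lines at 2-fold. Hells stays above 2-fold throughout (1.42 to 1.61), whereas Tet1 (-0.66) and Uhrf1 (0.13) move towards 0 when signals under 100 are raised to 100.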

How the data were processed

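Total RNA from each group was pooled before hybridisation, labelled with biotin and measured on 1 array per group. Linear intensity values, 1 for each probe set and array, were deposited by the authors. Affymetrix Expression Console 1.4.1 and RMA are listed in the submitters' processing notes, while the study's methods describe scaling to a global median and discarding signals under 100. Such signals are present here, so the normalization used is not settled. The column medians were 50.6 (Control) and 52.3 (DMA-tumor), and 33.0% and 36.0% of the 68842 probe sets reached 100. The methods also name a different array from the one whose probe sets the table holds.

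Here log2 was taken with no further normalization. Gene names came from the platform annotation, which gave a single symbol for 23446 probe sets, several for 505 and none for 44891. Only those with 1 symbol were used, and for 1182 genes with several the one with the highest mean was taken. The symbols of 9 of the 10 members were found again in the RefSeq gene table by Entrez gene ID, and Tet3 carried none in the annotation. Genes that reached 100 on 1 or both arrays were kept (12074 of 22093). A fold against a signal under 100 was bounded by raising that signal to 100. Calls used a 2-fold ratio, and the criteria of the methods (ratio of 2 or 0.5 with a Z-score of 2 or -2, here over all kept genes with a standard deviation of 1.02) were an alternative. The set of probes behind the Z-score is not given in the methods. The calls and normalizations were tested on simulated data. The named genes were all members and, of each list, those past 2-fold (up to 4) or otherwise the 2 with the largest difference, unless the text says that a gene was chosen later. The members and lists were chosen with earlier results of these data known.

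The alternatives were no filter, a filter at 32, a filter at 100 that both arrays had to pass, quantile normalization, subtraction of a loess trend (span 0.3), alignment of the array medians, averaging over all probe sets of a gene, signals raised to 100, and ratios of 1.5. There were 0 columns of other samples. Computations ran in Python 3.11.15 with pandas 2.3.3, numpy 2.4.6 and statsmodels 0.14.6, and plots were drawn with matplotlib 3.10.9. The methylation, PCR and human measurements were not used here.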

Additional observations from a re-analysis of the deposited data

How the results depend on the processing

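With 1 array per group no value has a replicate error, and a difference was taken to have moved when it changed by more than 0.34, the standard deviation of the silent receptor genes. Filters do not change a member's value, and averaging of probe sets changed only that of Hells, from 1.611 to 1.604. The count of moved values was thus taken over the 4 settings that rescale or raise signals. Under these, 33 of 36 member values did not move by this measure. Part of that count was fixed beforehand. Alignment of the medians shifts all members alike, by less than 0.34 here, and raising signals to 100 changes only Uhrf1 and Tet1. The scale of 0.34 also comes from genes nearly all under 100, unlike most members. The 3 that moved were Mbd2 after removal of the loess trend (-0.22) and, with signals raised to 100, Uhrf1 (0.13) and Tet1 (-0.66). Hells was at least 2-fold higher under each of the 8 settings, although filters and the raising of signals to 100 could not change its value. The count of members at least 2-fold lower was 0 in place of 1 (Tet1) with signals raised to 100, and 0 of 7 members with a signal of at least 100 required on both arrays, which left out Tet1 and Uhrf1 (8.83% of 10745 genes were lower and 7.06% higher there). With the Z-score of the methods the counts were 0 higher and 0 lower. At a ratio of 1.5, 3 members were higher (Uhrf1, Hells and Tdg), against 16.7% of all genes, and 1 was lower (Tet1), against 21.5%. The counts of Uhrf1 and Tet1 there rest on signals under 100. The median of the members lay between -0.073 (quantile normalization) and 0.23 (no filter, 10 members). The median of all genes was -0.082 as reported, -0.19 with the loess trend removed and -0.34 after quantile normalization, so members near 0 change sign with the scaling.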
